A study of Mus musculus with 16 samples.

Results

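Cathepsins are the proteases of the lysosome, and 10 of them were followed here in RAW 264.7 cells, a mouse macrophage-like line: Ctsa, Ctsb, Ctsc, Ctsd, Ctse, Ctsh, Ctsk, Ctsl, Ctss and Ctsz. They were chosen by gene symbol, 10 of the 52636 gene rows in each library, and 8 of the 10 were among the 11044 genes that passed the filter on low values. Cells received a control siRNA or 1 siRNA product against Cebpb, at 25 nM for 24 h, and were then left without agonist or given isoproterenol, a β-adrenergic agonist that raises cyclic AMP; the sources used here give neither its dose nor its duration. The question behind the design, from the series title, was whether C/EBPβ, the transcription factor encoded by Cebpb, controls the alternative (M2) programme of β-adrenergically stimulated macrophages. The 4 groups were control siRNA, control siRNA with isoproterenol, Cebpb siRNA, and Cebpb siRNA with isoproterenol, each with 4 libraries described as biological replicates, 2 from each of 2 experiments, all from the same line.

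Most cathepsins are made as inactive precursors, carried to the lysosome by mannose 6-phosphate receptors, and cut to their active form in the acidic lumen. Ctsb, Ctsc, Ctsh, Ctsk, Ctsl, Ctss and Ctsz are cysteine proteases of the papain family, Ctsd and Ctse are aspartic proteases, and Ctsa is a serine carboxypeptidase. In macrophages they degrade engulfed protein, trim the invariant chain from MHC class II molecules and process endosomal Toll-like receptors, and cystatins hold the cysteine proteases in check.

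Library depth, inferred from the steps between the deposited values, was 9.42 to 25.2 M reads (M, 1000000 reads), of which 5.81 to 15.9 M lay on genes. Levels are reads per 1000000 sequenced reads (RPM), and since each transcript gives reads at its 3′ end, levels of different genes were compared without dividing by length. A gene at or under 1 RPM, which is 9.4 to 25.2 reads, is listed at 0. All 10 macrophage markers checked, among them Adgre1, Csf1r and Cd68, were listed above 0, while all 7 fibroblast and 5 epithelial markers were at 0. Of the neutrophil markers 2 of 10 (S100a8 and Csf3r) were listed, with a summed level of 2.28 to 4.87 RPM in control siRNA, 4.44 to 5.84 RPM with isoproterenol, 0 to 1.05 RPM in Cebpb siRNA and 0 with both. The dendritic list had 2 of 7 (Zbtb46 and Batf3), at 9.35 to 10.6, 7.35 to 8.73, 3.61 to 7.94 and 4.25 to 6.57 RPM in the same order. The T and NK list had 1 of 9 (Lck), at 3.83 to 5.67, 4.65 to 6.20, 2.70 to 4.03 and 2.40 to 3.51 RPM. The B list had 1 of 6 (Ighm), at 16.6 to 22.8, 13.0 to 18.2, 9.13 to 11.4 and 4.82 to 7.90 RPM. The defining markers Ly6g, Elane, Flt3 and Cd3e were at 0 in all 16 libraries. Cebpb fell by 1.72 on the log2 scale (SE 0.20) in both comparisons of the siRNAs (limma adjusted p = 4.94e-07 without isoproterenol and 4.56e-07 with it). Its mean went from 76.1 to 22.9 RPM without isoproterenol and from 92.1 to 26.5 RPM with it. Mitochondrial ribosomal RNA mt-Rnr2 ranged from 17257 to 20167 RPM in control siRNA, 20859 to 21937 with isoproterenol, 24907 to 27698 in Cebpb siRNA and 27614 to 39135 with both. Unmapped reads made up 5.14% to 5.94%, 5.07% to 5.81%, 6.32% to 7.61% and 5.90% to 7.36% in the same order. The part of these marker levels and read quantities in the cathepsin results below was not tested.

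Promoter sequence was matched by symbol in RefSeq's table for GRCm38.p6, which gives 250 bases before to 50 after each start site, and 7 of the 10 members matched. Shown are Ctss, which was higher after Cebpb siRNA, and Ctsl and Ctsc, which were higher after isoproterenol. Capitals mark every match to the words searched on both strands.
Ctss, chr3:95526536-95526835, + strand: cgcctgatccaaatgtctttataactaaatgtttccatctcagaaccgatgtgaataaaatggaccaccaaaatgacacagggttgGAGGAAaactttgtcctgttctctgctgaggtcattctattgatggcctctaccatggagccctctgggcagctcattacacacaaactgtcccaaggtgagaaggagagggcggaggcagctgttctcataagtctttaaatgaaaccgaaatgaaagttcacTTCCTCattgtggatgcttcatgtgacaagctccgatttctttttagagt
Ctsl, chr13:64370471-64370770, - strand: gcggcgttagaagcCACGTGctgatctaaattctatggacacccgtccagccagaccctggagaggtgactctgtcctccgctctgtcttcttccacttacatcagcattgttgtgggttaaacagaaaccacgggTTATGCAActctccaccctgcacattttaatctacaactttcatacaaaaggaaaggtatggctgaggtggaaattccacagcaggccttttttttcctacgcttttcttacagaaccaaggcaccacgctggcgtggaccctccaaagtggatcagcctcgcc
Ctsc, chr7:88277835-88278134, + strand: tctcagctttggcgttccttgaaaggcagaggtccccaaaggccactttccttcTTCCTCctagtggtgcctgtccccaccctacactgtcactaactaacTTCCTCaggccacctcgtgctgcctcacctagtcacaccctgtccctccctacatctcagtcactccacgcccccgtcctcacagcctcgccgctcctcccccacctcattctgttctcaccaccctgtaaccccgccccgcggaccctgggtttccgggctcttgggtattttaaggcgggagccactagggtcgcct
The words were TTGCNNAA (a C/EBP-type word, in 10.8% of 32841 promoter windows), TGACG (the short form of the cyclic AMP response element, 20.82%), TGACGTCA (the full element, which contains the short form, 1.79%), CACGTG (an E-box, 7.15%) and GAGGAA (a PU.1-type core, 28.28%). With positions counted from the start site as +1, the Ctss window held GAGGAA at -164 and, on the other strand, at 1. The Ctsl window held the C/EBP-type word at -114 and an E-box at -236. The Ctsc window held the PU.1-type core at -196 and -149. Neither the Ctsl nor the Ctsc window held TGACG. The start site of the Ctss window was also that of both GENCODE transcripts of Ctss, and the Ctsc start site was the most upstream of its GENCODE starts. The Ctsl start lay 214 bases upstream of the GENCODE start shared by 4 Ctsl transcripts and 370 bases downstream of the most upstream one. The window is thus 1 of several possible Ctsl promoters. Of the other members with an entry, Ctsd held E-boxes at -245 and -98 and TGACG at -43. Ctsk held the C/EBP-type word at -76 and 25 and the PU.1-type core at -233 and -58. For Ctsa, which has a pair of entries, the entry starting 1 base from the most upstream GENCODE start held none of the words. The other entry, 900 bases downstream of that GENCODE start and 34 bases upstream of another, held E-boxes at -12 and 6. Ctsz held none of the words. These matches describe the letters in the windows and show no binding.

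The cathepsins covered a wide range of levels in untreated control siRNA cells. Ctsd, an aspartic protease and the most abundant of the 10, stood at 1935 ± 142 RPM (SD, n = 4), with 1937 and 1764 RPM in experiment 1 and 1928 and 2112 RPM in experiment 2. Ctsb, a cysteine protease with both endopeptidase and carboxypeptidase activity, followed at 997 ± 110 RPM. Ctss (495 ± 27.7 RPM) and Ctsz (491 ± 80.9 RPM) could not be ordered, since their libraries overlapped. Ctsl was next at 318 ± 21.0 RPM, below every library of Ctsz. Ctsc (198 ± 53.4 RPM) and Ctsa (196 ± 12.3 RPM) overlapped each other. Ctsh, an aminopeptidase, was far lower at 4.17 ± 0.61 RPM.

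Together the 10 cathepsins summed to 4634 ± 384 RPM in control siRNA, 5035 ± 377 RPM with isoproterenol, 4644 ± 177 RPM in Cebpb siRNA and 4927 ± 246 RPM with both. That was 0.733%, 0.786%, 0.746% and 0.775% of the reads on genes. Ctsd and Ctsb alone supplied 59.0% to 64.4% of the sum across the 16 libraries. Ctse, an aspartic protease of endosomes, and Ctsk, the collagen-degrading protease of osteoclasts, were listed at 0 in all 16 libraries. Of the osteoclast markers, Acp5, Calcr, Oscar, Ocstamp, Itgb3 and Atp6v0d2 were at 0 as well, while Dcstamp, Mmp9 and Nfatc1 were above 0. The summed level of the osteoclast markers was 98.8 to 181 RPM in control siRNA, 134 to 235 RPM with isoproterenol, 219 to 244 RPM in Cebpb siRNA and 189 to 225 RPM with both. Mmp9 made up most of it. Without isoproterenol all 3 tested markers were called higher in Cebpb siRNA, as were 31.5% of all genes. Dcstamp went from 14.8 to 39.6 RPM (limma adjusted p = 2.7e-10). Mmp9 went from 117 to 181 RPM (limma adjusted p = 0.000223) and Nfatc1 from 9.16 to 12.2 RPM (0.000232). With isoproterenol Dcstamp (limma adjusted p = 2.45e-07) and Nfatc1 (7.88e-06) were called higher, as were 32.1% of all genes. Mmp9 did not pass there (limma adjusted p = 0.381). Since RNA was taken from whole cultures, fewer cells expressing a gene and less RNA per cell cannot be told apart.

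**Figure D1:**
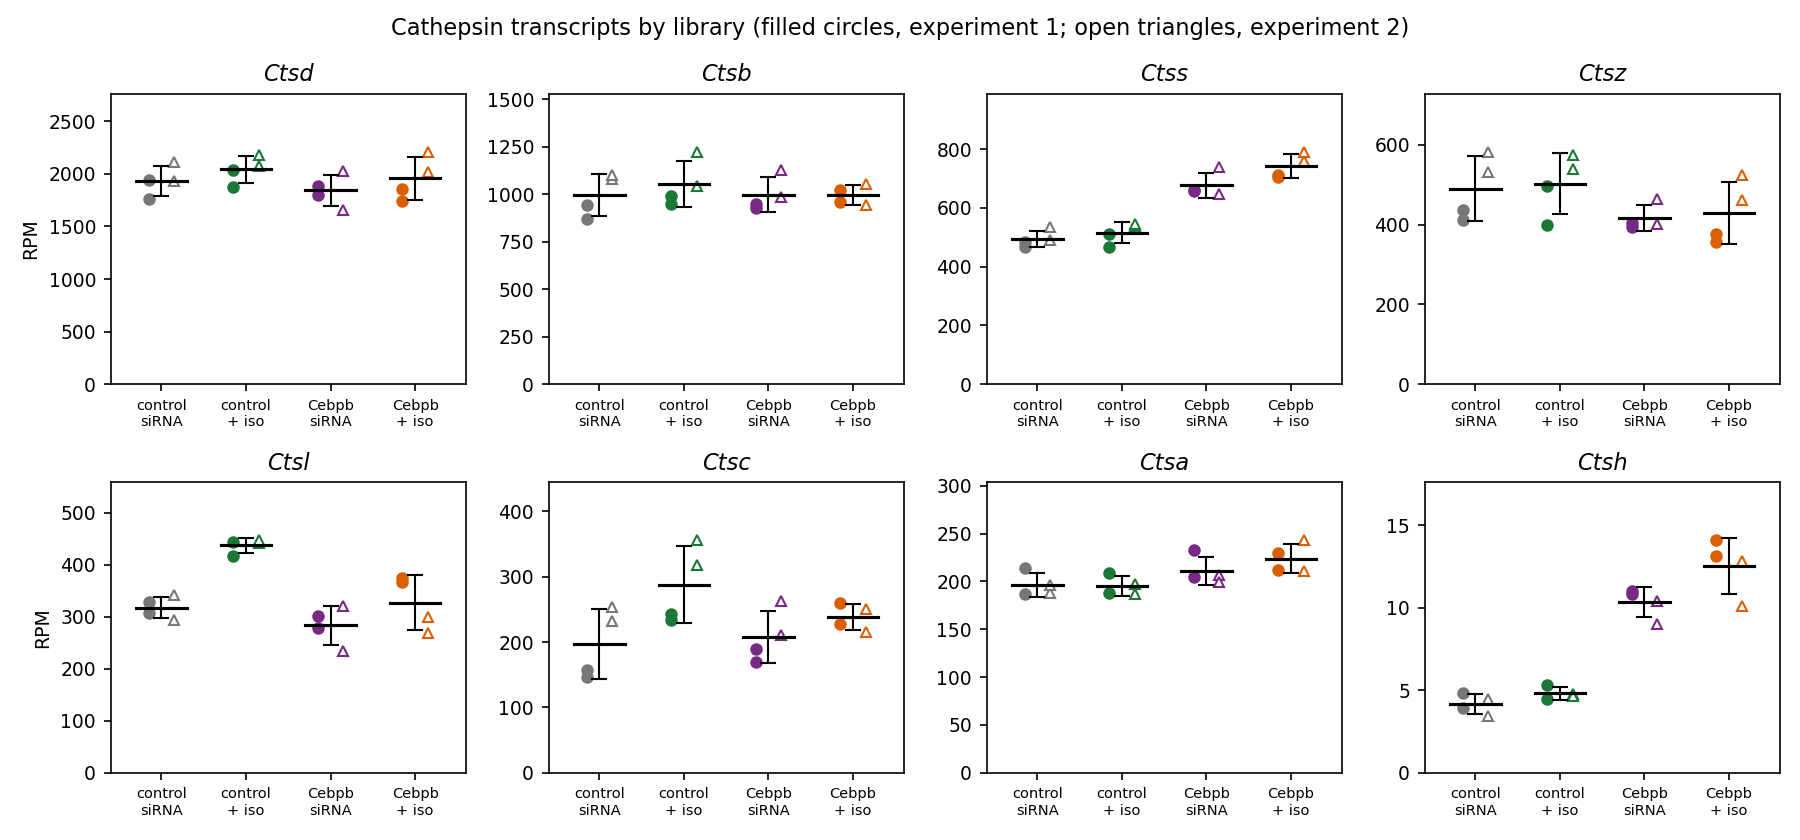
Level in RPM of each tested cathepsin (y axis from 0) in the 4 groups (iso, isoproterenol); points are libraries, with filled circles for experiment 1 and open triangles for experiment 2, and lines and bars give mean and SD (n = 4). Ctss and Ctsh separate by siRNA, Ctsl separates by isoproterenol in control siRNA cells, and Ctsd and Ctsb overlap across all groups.

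Cebpb siRNA moved the cathepsins in a mixed way. In cells without isoproterenol, 3 of the 8 tested members were higher (Ctsh, Ctss and Ctsa) and none was lower at a limma adjusted p under 0.05. Of all 11044 genes 61.4% were called in this comparison and 31.5% were called higher. The members' median change was 0.14 on the log2 scale against 0.02 over all genes, and their median size without regard to sign was 0.16 against 0.35. In cells with isoproterenol 5 of the 8 were called, where 62.1% of all genes were: the same 3 were higher (32.1% of all genes) and Ctsl and Ctsz were lower (30.0% of all genes).

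Ctss, at chr3:95526786-95556403 (GRCm38, as all coordinates here), encodes the cysteine protease that makes the last cuts in the invariant chain and stays active at neutral pH. In control siRNA its libraries held 468, 485, 492 and 534 RPM, given here and below as experiment 1 replicates 1 and 2 and then experiment 2 replicates 1 and 2. In Cebpb siRNA they held 659, 661, 739 and 647 RPM. Every Cebpb siRNA library lay above every control siRNA library. With isoproterenol, Ctss stood at 467, 511, 540 and 544 RPM under control siRNA. Under Cebpb siRNA with isoproterenol it stood at 707, 712, 760 and 792 RPM, again with no overlap. Ctss rose by 0.55 on the log2 scale (SE 0.05, 1.46-fold, limma adjusted p = 5.09e-09) without isoproterenol. With isoproterenol it rose by 0.60 (SE 0.05, 1.52-fold, limma adjusted p = 1.06e-09). On the deposited log2 values the difference was 0.47 in experiment 1 and 0.43 in experiment 2 without isoproterenol, and 0.54 and 0.52 with it. Isoproterenol itself shifted Ctss by 0.03 (95% interval -0.08 to 0.13) in control siRNA cells and 0.08 (-0.03 to 0.18) in Cebpb siRNA cells, neither past the threshold.

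Ctsh, at chr9:90054152-90076089, had the largest siRNA change of the 8 tested members in both comparisons. Its libraries held 4.83, 3.95, 3.42 and 4.47 RPM in control siRNA. In Cebpb siRNA they held 11.0, 10.8, 10.4 and 9.02 RPM, above every control library. With isoproterenol the values were 4.45, 5.34, 4.76 and 4.65 RPM under control siRNA and 13.1, 14.1, 10.1 and 12.8 RPM under Cebpb siRNA. Ctsh rose by 1.41 on the log2 scale (SE 0.12, 2.66-fold, limma adjusted p = 7.59e-10) without isoproterenol and by 1.45 (SE 0.12, 2.73-fold, limma adjusted p = 4.33e-10) with it. These levels rest on 69 to 262 reads per library, so counting error is larger here than for the other 7. Ctsh and Ctss had a Pearson r of 0.987 across the 16 libraries after the experiment means were removed, and among tested genes that averaged 10 RPM or more Ctss was the third most like Ctsh, after Prorsd1 (0.988) and Dok3 (0.987). The 16 points share their 4 groups and the correlation is a description only.

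Ctsa, the carboxypeptidase that also holds the sialidase Neu1 and the β-galactosidase Glb1 in a protective complex, changed little. It stood at 214, 187, 188 and 196 RPM in control siRNA and 204, 233, 207 and 199 RPM in Cebpb siRNA, with overlapping libraries. With isoproterenol it stood at 188, 209, 187 and 198 RPM under control siRNA and 212, 229, 211 and 243 RPM under Cebpb siRNA, without overlap. Ctsa rose by 0.20 (SE 0.06, 1.15-fold, limma adjusted p = 0.0058) and by 0.27 (SE 0.06, 1.20-fold, limma adjusted p = 0.000434). The first call ended without scaling between libraries (log2 change 0.10, limma adjusted p = 0.199) and in experiment 2 alone (0.21, limma adjusted p = 0.089). Its partner Neu1 did not pass the test in either comparison (limma adjusted p = 0.705 and 0.462). Glb1 was lower without isoproterenol (log2 change -0.17, limma adjusted p = 0.0408).

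**Figure D2:**
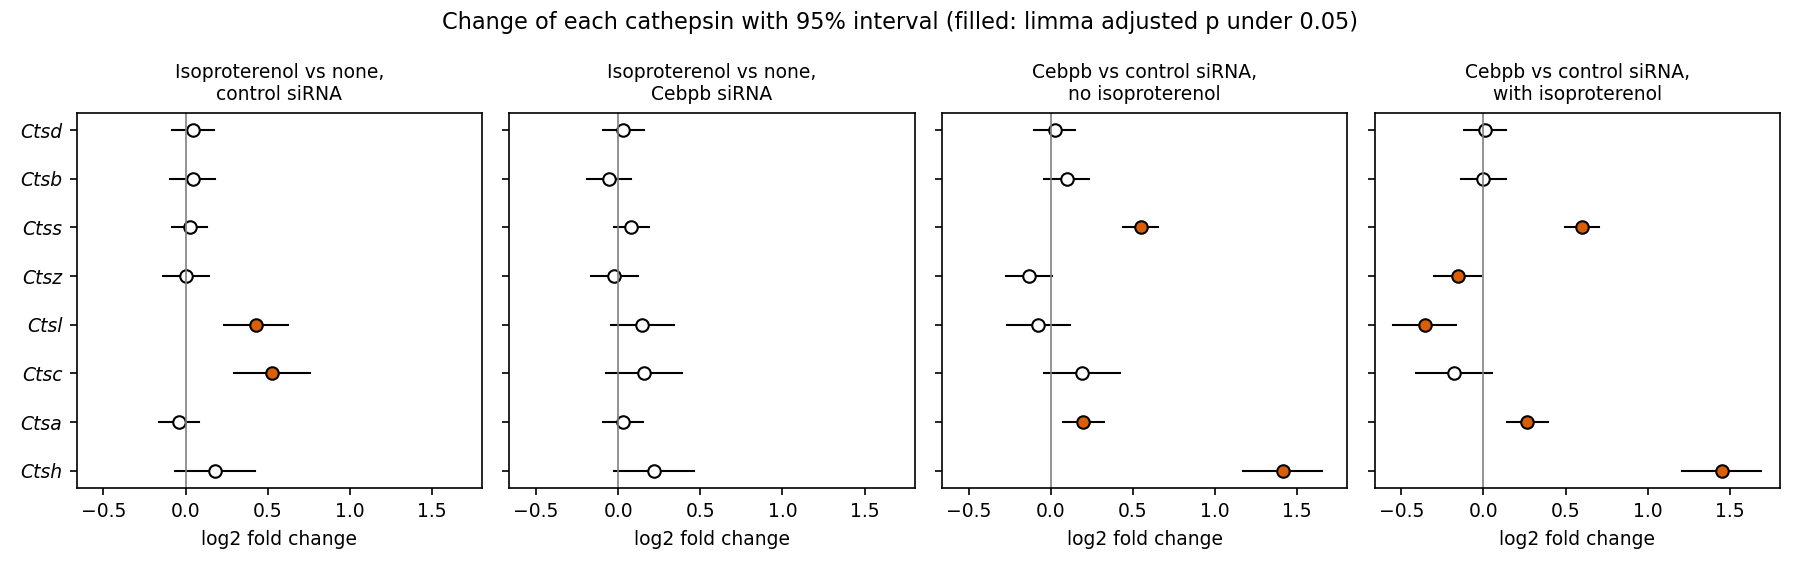
Log2 fold change (x axis) of each tested cathepsin in 4 comparisons, with 95% intervals; filled points had a limma adjusted p under 0.05. Ctsh and Ctss lie to the right in both siRNA comparisons, and only Ctsl and Ctsc are filled among the 2 isoproterenol comparisons.

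Isoproterenol raised 2 of the 8 tested cathepsins in control siRNA cells, Ctsc and Ctsl, and lowered none. Of all genes 1.62% were called in either direction and 1.17% were called higher. The other 6 cathepsins had log2 changes between -0.04 and 0.18, and the median over the 8 was 0.04 against 0.00 over all genes. The summed level of the 10 macrophage markers was 1350 to 1768 RPM without isoproterenol and 1942 to 2292 RPM with it, and its part in the result was not tested.

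Ctsl, at chr13:64359337-64370890, encodes an endopeptidase that degrades proteins taken up by endocytosis. Without isoproterenol it stood at 308, 328, 294 and 342 RPM in control siRNA cells. With isoproterenol it stood at 444, 416, 441 and 448 RPM. No library with isoproterenol fell within the range without it. The log2 rise was 0.43 (SE 0.09, 1.35-fold, limma adjusted p = 0.0142), and the deposited values differed by 0.44 in experiment 1 and 0.49 in experiment 2. The call ended when any of 5 libraries was left out: control siRNA replicate 1 of experiment 1 (limma adjusted p = 0.0831) or 1 of experiment 2 (0.0615), or, among the isoproterenol libraries, replicate 1 of experiment 1 (0.0514) or either library of experiment 2 (0.0669 and 0.0628). It also ended without the experiment term (limma adjusted p = 0.127), in experiment 2 alone (0.545) and without trend and robust variance (0.0884). The log2 change was 0.39 to 0.48 over all 28 other ways of processing.

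Ctsc, dipeptidyl peptidase I, at chr7:88278085-88310888, activates granule serine proteases of neutrophils and cytotoxic lymphocytes. Its substrates Elane, Prtn3 and Gzmb were at 0 in all 16 libraries. In control siRNA cells Ctsc stood at 157, 147, 232 and 254 RPM without isoproterenol. With isoproterenol it stood at 244, 234, 317 and 356 RPM. The 2 groups overlapped when experiments were pooled, since experiment 2 was higher, and did not overlap within either experiment. The log2 rise was 0.53 (SE 0.11, 1.44-fold, limma adjusted p = 0.0135). On the deposited values the rise was 0.65 in experiment 1 and 0.47 in experiment 2. The call ended without control siRNA replicate 1 (log2 change 0.49, limma adjusted p = 0.0612) or 2 (0.47, adjusted p = 0.0683) of experiment 1, or without isoproterenol replicate 2 of experiment 2 (0.48, adjusted p = 0.0614). It also ended without the experiment term (0.53, limma adjusted p = 0.376), in experiment 2 alone (0.45, adjusted p = 0.419) and without trend and robust variance (0.53, adjusted p = 0.068).

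In Cebpb siRNA cells none of the 8 tested cathepsins passed the limma test for isoproterenol, and none had an unadjusted p under 0.05, where 5.48% of all genes were called. Ctsl stood at 279, 301, 234 and 321 RPM without isoproterenol and 375, 367, 300 and 268 RPM with it. The 2 experiments differed: the deposited log2 values rose by 0.36 in experiment 1 and by 0.05 in experiment 2. Ctsc stood at 169, 189, 211 and 262 RPM without isoproterenol and 260, 228, 251 and 215 RPM with it, a log2 difference of 0.44 in experiment 1 and -0.02 in experiment 2. The difference between experiments in the Cebpb siRNA response did not pass the limma test for Ctsc (adjusted p = 0.428) or Ctsl (adjusted p = 0.476). Experiment 1 alone called both (limma adjusted p = 0.00479 for Ctsc and 0.0121 for Ctsl).

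Whether the response to isoproterenol differed between the siRNAs was tested directly. None of the 8 cathepsins passed the limma test, 2 had an unadjusted p under 0.05, and 0.226% of all genes were called. Ctsc had the largest difference, -0.37 (95% interval -0.70 to -0.04, unadjusted p = 0.0283, limma adjusted p = 0.694), followed by Ctsl at -0.28 (-0.55 to -0.01, unadjusted p = 0.0427, limma adjusted p = 0.763). For Ctss the interval was -0.10 to 0.20, and for Ctsd -0.19 to 0.16.

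**Figure D3:**
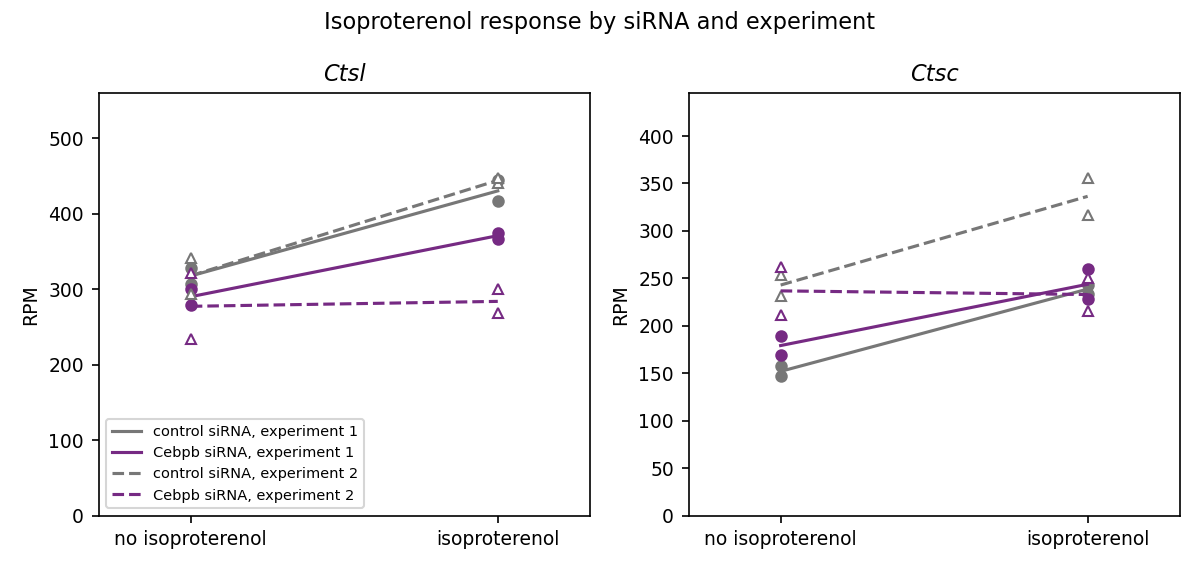
Ctsl and Ctsc levels in RPM (y axis from 0) without and with isoproterenol; points are libraries, lines join the mean of 2 libraries, colours mark the siRNA, and solid or dashed lines mark experiment 1 or 2. All 4 control siRNA lines rise, whereas the Cebpb siRNA lines rise in experiment 1 and are near flat in experiment 2.

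With isoproterenol present, Ctsl was lower in Cebpb siRNA cells than in control siRNA cells, by -0.36 (SE 0.09, limma adjusted p = 0.00198), with no overlap between the 4 and 4 libraries. Without isoproterenol the Ctsl difference was -0.08 (95% interval -0.27 to 0.12, limma adjusted p = 0.499). The difference with isoproterenol was -0.21 in experiment 1 and -0.65 in experiment 2 on the deposited values, and in experiment 1 alone it did not pass (limma adjusted p = 0.054). Ctsz, a carboxypeptidase secreted by macrophages, stood at 398, 496, 541 and 575 RPM in control siRNA with isoproterenol and 356, 375, 525 and 462 RPM in Cebpb siRNA with isoproterenol. Its change of -0.16 (SE 0.07) had a limma adjusted p of 0.0496 and was called in 13 of 28 other ways of processing, so it lay at the threshold. Without isoproterenol the Ctsz difference was similar, at -0.13 (95% interval -0.27 to 0.01, limma adjusted p = 0.0996). That difference was called without scaling between libraries (-0.23, limma adjusted p = 0.0178). The isoproterenol effects on Ctsz differed between the siRNAs by -0.03 (limma adjusted p = 0.993). With isoproterenol, Ctsc differed by -0.18 (limma adjusted p = 0.169), and on the deposited values by 0.03 in experiment 1 and -0.53 in experiment 2. It was called in 2 of 28 other ways of processing, among them experiment 2 alone (-0.45, limma adjusted p = 0.00956). Without isoproterenol the Ctsc difference was 0.19 (limma adjusted p = 0.142). That was also called in 2 of 28 ways, among them experiment 1 alone (0.28, limma adjusted p = 0.00372).

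Ctsd and Ctsb, the most abundant pair, did not pass in any siRNA or isoproterenol comparison. Over the 16 libraries Ctsd lay between 1660 and 2211 RPM and Ctsb between 870.1 and 1223 RPM. The 95% intervals of the siRNA effect were -0.10 to 0.15 for Ctsd and -0.04 to 0.23 for Ctsb without isoproterenol, and -0.12 to 0.14 and -0.14 to 0.13 with it. For isoproterenol in control siRNA cells the intervals were -0.08 to 0.17 and -0.09 to 0.18.

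The 2 experiments differed as well. In 5 of the 8 tested cathepsins levels were higher in experiment 2 (Ctsz 0.32, Ctsc 0.37, Ctsb 0.17, Ctss 0.11 and Ctsd 0.12 on the log2 scale, limma adjusted p from 3.24e-05 to 0.0423), and none was lower. Of all genes 32.9% were called in either direction and 17.2% were called higher. The Ctsd call held in 10 of 23 other ways of processing, with a limma adjusted p of up to 0.0916. Each group held 2 libraries of each experiment, and experiment was a term of the model.

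Genes that act with the cathepsins are given from lists chosen with earlier results of these data in view. In control siRNA cells, isoproterenol called none of the tested genes in any of the 6 lists, where 1.62% of all genes were called. In Cebpb siRNA cells, where 5.48% of all genes were called, it raised Serpinb6a and Cd74 and lowered Gnptab, and Ctla2a and Ctla2b, which rest on low values given below, were also called. Among the 13 other cathepsins in the lists 12 were at 0, and Ctso, at 5.75 ± 0.32 RPM in control siRNA and 10.2 ± 3.36 RPM in Cebpb siRNA, rose by 0.87 (SE 0.17, limma adjusted p = 0.000167) without isoproterenol and 0.77 with it.

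Among the endogenous inhibitors of cysteine cathepsins, 7 of 21 listed were tested. Ctla2a and Ctla2b passed the filter on low values through the Cebpb siRNA libraries and are given apart. Of the other 5, Cst3, Cstb and Cst7 rose after Cebpb siRNA in both comparisons and none fell, where 31.5% of all genes were higher without isoproterenol and 32.1% with it. Their medians were 0.72 and 0.53 on the log2 scale against 0.02 over all genes in each comparison. Cst3, cystatin C, the secreted inhibitor of cysteine cathepsins, went from 296 ± 26.5 RPM to 514 ± 82.6 RPM (log2 0.89, SE 0.08, limma adjusted p = 2.46e-09) without isoproterenol and from 295 ± 26.7 to 558 ± 4.75 RPM with it (0.99, limma adjusted p = 3.46e-10). Cstb, the cytosolic stefin B, went from 267 ± 17.3 to 411 ± 41.9 RPM (0.72, limma adjusted p = 1.14e-08) and from 273 ± 10.7 to 374 ± 26.6 RPM (0.53, limma adjusted p = 1.11e-06). Cst7 lay near the floor, at 1.74 ± 0.47 RPM in control siRNA (lowest library 1.05 RPM) and 4.17 ± 1.15 RPM in Cebpb siRNA. With isoproterenol Cst7 stood at 2.52 ± 0.31 and 4.68 ± 0.58 RPM. Ctla2a, related to the cathepsin propeptide, had 0 in each library of the control siRNA group without isoproterenol and stood at 5.81 ± 0.15 RPM in Cebpb siRNA with isoproterenol, and Ctla2b at 2.82 ± 0.41 RPM in that group. They are near-identical copies, so reads may be split between them.

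Sorting and maturation genes moved both ways. Of 24 tested, 11 rose and 8 fell without isoproterenol, and 10 rose and 9 fell with it, with medians of -0.01 and 0.04, where 61.4% and 62.1% of all genes were called in either direction. Gnptg, the γ subunit of the enzyme that makes the mannose 6-phosphate tag, rose by 1.74 (10.2 ± 1.88 to 31.7 ± 3.90 RPM, limma adjusted p = 2.94e-11). Gnptab, the α/β subunit of the same enzyme, fell by 0.87 (24.4 ± 1.00 to 12.5 ± 0.92 RPM, limma adjusted p = 5.85e-08). The mannose 6-phosphate receptor M6pr fell by 0.64 (170.4 ± 11.1 to 103 ± 16.4 RPM, limma adjusted p = 3.15e-08). Lamp1, a lysosomal membrane protein, rose by 0.44 (limma adjusted p = 1.3e-07).

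Of the partners and substrates of the cathepsins, 11 were tested, and H2-DMb1, listed at 0 in every control siRNA library, is left out of the counts. Of the other 10, 8 rose and 1 fell after Cebpb siRNA without isoproterenol, and 7 rose and none fell with it, where 31.5% and 32.1% of all genes were higher. Their medians were 0.58 and 0.76. The 8 include H2-Ab1 (log2 0.59, limma adjusted p = 0.0214), whose values lie near the floor. H2-Ab1 stood at 0.29 ± 0.57 RPM in control siRNA and 1.24 ± 1.47 RPM in Cebpb siRNA, with libraries at 0 in both groups. Cd74, the invariant chain cut by Ctss, went from 18.7 ± 1.80 to 53.2 ± 8.50 RPM (log2 1.60, limma adjusted p = 1.08e-11). H2-DMa, which loads peptide onto class II molecules, rose by 1.10 (limma adjusted p = 2.02e-06), and Tlr7, an endosomal receptor processed by cathepsins, by 1.08 (limma adjusted p = 1.49e-11). The class II chains H2-Aa and H2-Eb1 were at 0 in all 16 libraries. The class II chain H2-Ab1 reached 1.14 RPM in control siRNA, 1.88 RPM with isoproterenol, 2.90 RPM in Cebpb siRNA and 2.54 RPM with both. Of 5 lysosomal transcription factors tested, 1 rose and 1 fell without isoproterenol, where 61.4% of all genes were called in either direction. Mitf fell by 0.70 (32.6 ± 1.77 to 18.9 ± 2.56 RPM, limma adjusted p = 4.72e-06), Zkscan3 rose by 0.30 (limma adjusted p = 0.00791), and Tfeb (log2 change 0.07, limma adjusted p = 0.65) did not pass. With isoproterenol (62.1% of all genes), Mitf fell by 0.74 (limma adjusted p = 2.09e-06) and Zkscan3 did not pass (0.09, limma adjusted p = 0.411).

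**Figure D4:**
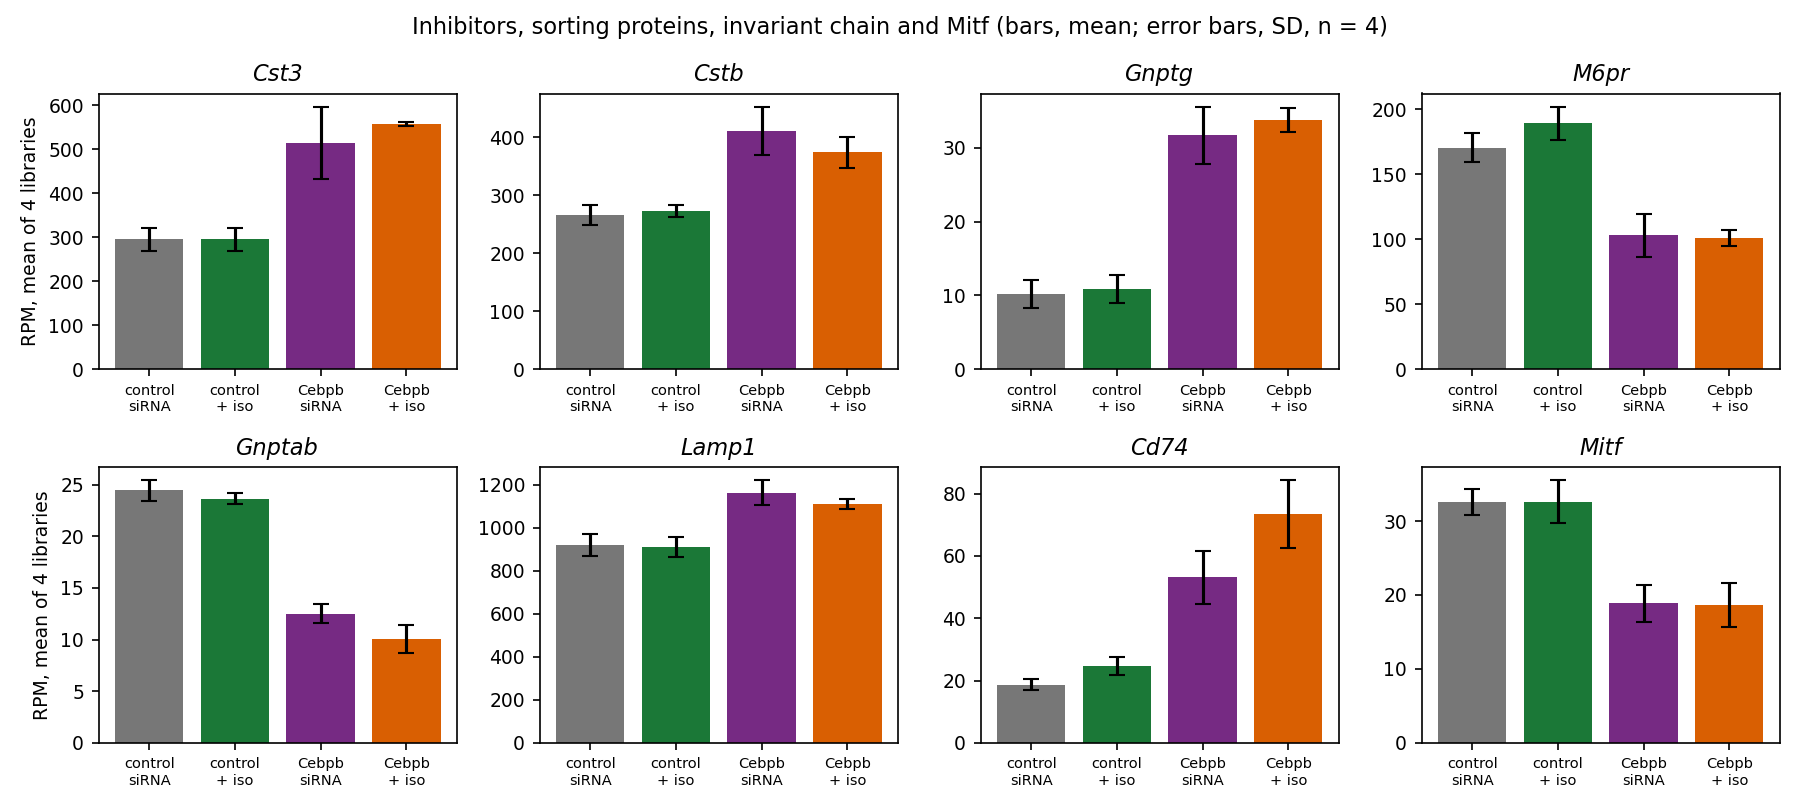
Mean RPM (bars, y axis from 0) and SD (error bars, n = 4) of 8 genes that act with the cathepsins, in the 4 groups (iso, isoproterenol). Cst3, Cstb, Gnptg, Lamp1 and Cd74 are higher and M6pr, Gnptab and Mitf lower in the Cebpb siRNA groups.

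Features of the transcripts that the choice of members did not use were also read from GENCODE. The 7-base word AACTTGT had been chosen earlier on these data. In the siRNA comparison without isoproterenol, 1553 tested genes with it in the 3′ UTR had a median log2 change of -0.21. The median was 0.06 for 7838 genes with neither that word nor ACTTGTA. Since the word came from these data, the shift is no independent evidence for it, and what the word marks was not tested. None of the 8 tested cathepsins held AACTTGT in its longest 3′ UTR, the only form searched. Ctsc alone held ACTTGTA there, at 2 positions. Several members share transcribed sequence with a neighbour: Ctsb overlaps Fdft1 on the other strand over 774 exonic bases, Ctsa overlaps Neurl2 and Pltp, and Ctsz overlaps Nelfcd by 10 bases. No source used here says whether the counting used strand, so reads within these overlaps cannot be told apart. The highest level of a neighbour in any library was 53.2 RPM for Fdft1, 8.44 RPM for Neurl2 and 64.4 RPM for Nelfcd. Pltp was not listed above 0. The targeted gene Cebpb overlaps Tmem189 on the other strand over 312 exonic bases. Tmem189 reached 192 RPM, so the same limit holds for the Cebpb levels. Ctsd shares 808 exonic bases with Gm49369 on the same strand. Ctsl shares 1742 with Gm47123 on the other strand and 395 with the processed pseudogene Gm49230 on the same strand. None of these neighbours is named among the gene rows, so no level can be given for them. The Ctsd and Ctsl counts are uncertain to that degree.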

How the data were processed

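RNA from RAW 264.7 cells was sequenced with Lexogen QuantSeq 3′ FWD, per the labels, and the submitters' processing notes name STAR 2.5.3a and the build GRCm38. No source used here names the read counter or its strand setting. The authors deposited, for each of 16 libraries, log2 values of reads per 1000000 sequenced reads (RPM), with genes at or under 1 RPM listed as 0. Each library's reads were inferred from the steps between its values. Multiplied by that depth, 100% of the values above 0 came out whole within 0.1 read. The depth was fitted to the same values, so this is no independent check. Rows for unmapped, multimapping, ambiguous and featureless reads were left out of the tests.

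Log2 values were scaled between libraries by a trimmed mean of log ratios (trimming 30% by ratio and 5% by level), set to a common floor of 1.08 RPM and tested with limma 3.58.1 (trend and robust variance, R 4.3.3) with group and experiment as terms. Genes above the floor in at least 4 libraries were tested, 11044 in all, and p-values were adjusted by Benjamini-Hochberg at 0.05. Fold changes come from the scaled fit; the RPM printed are unscaled. The 4 libraries of a group are described as biological replicates. Without scaling, the share of calls that were higher went from 72.1% to 84.3% for isoproterenol in control siRNA cells, from 51.7% to 74.8% for isoproterenol in Cebpb siRNA cells, and from 51.4% to 41.0% for the siRNA without isoproterenol.

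The members, the gene lists and the rule for named genes were chosen with earlier results of these data known. The rule named all 10 members, up to 4 genes per list and comparison, and the 3 genes most like Ctsd and Ctsh. For Ctsd these were Rpl23a (Pearson r 0.906), Pgrmc2 (0.880) and Gcc1 (0.873), over 16 libraries. Lists were also counted without genes at 0 in a whole group, a choice made after seeing the data. The closing section gives the alternatives tried.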

Additional observations from a re-analysis of the deposited data

Results flagged for a closer look

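In 2 of 32 combinations of member and group, 1 library stood apart from the other 3, by a gap that, divided by the range, exceeded Dixon's 95% critical value; chance gives about 1 in 20. In Cebpb siRNA without isoproterenol, replicate 1 of experiment 2 held 739 RPM of Ctss, where the others held 647 to 661 RPM. The same library held 464.7 RPM of Ctsz, where the others held 393.1 to 404.3 RPM. The Ctss rise was called without that library as well as with it. The rule pooled the 2 experiments, and Ctsz was higher in experiment 2 by 0.32 on the log2 scale (limma adjusted p = 3.24e-05). In this group replicate 2 of experiment 2, the shallowest library at 9.42 M reads, held 401 RPM of Ctsz. Which of these libraries is the unusual one cannot be told by this rule.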

How the results depend on the processing

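Of 1290 member values recomputed under 28 alternatives, 1236 kept their side of the threshold, 46 lost a call, 8 gained one, and 0 values called in either fit changed sign. Among values called in neither fit 51 changed sign, with a size of up to 0.14 on the log2 scale. The rises of Ctss after Cebpb siRNA were called in all 28, and those of Ctsh in all 27 that tested it. For isoproterenol in control siRNA cells, the count of cathepsins called went from 2 to 0 without trend and robust estimation, without the experiment term and in experiment 2 alone. With single libraries left out it was between 0 and 2. In Cebpb siRNA cells it went from 0 to 2 in experiment 1 alone. Between experiments it went from 5 to 3 without trend and robust estimation. With a replicate block the counts for isoproterenol in control siRNA cells were 2 and for the siRNA without isoproterenol 3. The differences of replicate 1 from replicate 2 correlated between groups at -0.19 to 0.23, over 0.1 in 3 of 12 pairs. With 2 replicates per group and experiment, whether equal numbers mark shared handling cannot be told from these values. Depth limits Ctsh, and Ctse and Ctsk cannot be read below 1 RPM.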
